A study of Oryza sativa with 239 samples.

Results

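Leaf RNA of 2 rice cultivars of the indica subspecies, WRC05 and WRC06, was compared in 6 control libraries, 3 of each, out of 239 libraries in the series. The members were taken by cultivar and treatment as the sample titles give them, and the 6 drought libraries of the same cultivars served as a check. The pair was chosen with measured profiles known, because WRC05 and WRC06 had looked alike, and the differences among WRC05 libraries were known as well. Both are therefore given as descriptions, with no test.

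The series measured polyadenylated RNA of 40 rice cultivars and lines by strand-specific sequencing (NEBNext Ultra II Directional kit). Germinated seeds were placed singly in pots with automatic irrigation (iPOT) in a growth chamber, and treatment began 14 days after sowing. The newest fully opened leaf and the one before it were taken on day 5. The groups were WRC05 control, WRC06 control, WRC05 drought and WRC06 drought, with 3 libraries each; control pots stayed irrigated and drought pots were drained. Title and design text speak of moderate drought, but the protocol text speaks of severe drought and later watering, so the severity is stated only as far as the labels give it. Whether a library holds 1 plant is not stated in so many words, and p-values measure the spread between these libraries, which may be technical.

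WRC numbers denote accessions of the World Rice Core Collection, in which a limited number of landraces and varieties stand for the breadth of the crop. Rice mostly pollinates itself, so plants of an inbred line carry nearly the same alleles, whereas a landrace accession can be kept as a mixture of lines. Rice cultivars are known to differ in which genes they carry as well as in how strongly shared genes are transcribed. Reference annotation matched 0 of the identifiers, so genes appear here under their identifiers, whose digits name the chromosome, and without roles. The leaf could not be checked against marker genes.

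The 3 WRC05 control libraries held 12.15 M to 14.65 M reads (M, 1000000 reads) assigned to genes and the 3 WRC06 control libraries 14.66 M to 15.08 M. In drought leaves WRC05 had 17.96 M, 19.79 M and 2.607 M and WRC06 had 17.94 M, 26.44 M and 7.875 M. At these depths 3 reads correspond to a scaled level of 1.251 CPM (reads in 1000000) in WRC05 drought replicate 3 and to at most 0.3491 CPM in every other library of the pair. CPM values here were scaled by the trimmed mean of M values (TMM), and they compare libraries, not genes of different length.

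The likeness of the pair depended on how it was measured. In the 6 control libraries, 37 genes had at least 5 CPM in all 3 libraries of one cultivar and 0 reads in all 3 of the other, which is 0.266% of the genes that reached 5 CPM throughout either. Among the 780 pairs of cultivars such counts ran between 4 and 387 with a median of 189, and only Dro1-NIL with IR64 (4 genes) and Koshihikari with WRC01 (31 genes) had fewer. For WRC05 the next pairs were WRC16 with 68 genes and WRC44 with 73. This count holds only genes that are uniform within the control libraries of each cultivar, and the WRC05 libraries were not uniform.

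Over the 1500 genes that varied most between cultivars relative to within them, centred on their means over the cultivars, the control profiles of WRC05 and WRC06 correlated at r = 0.44 across genes, rank 22 of the 780 control pairs. Without centring r was 0.63 and the rank 83. Over 5000 genes, centred, r was 0.18, and over 500 genes 0.50. Each was the closest profile of the other: WRC09 (0.27) and WRC03 (0.24) came next for WRC05, and WRC19 (0.17) for WRC06. The indica cultivar IR64 correlated at 0.19 with WRC05 and at 0.16 with WRC06, and the japonica cultivar Koshihikari at -0.08 with WRC05 and at -0.14 with WRC06. In drought leaves the profiles of the pair correlated at 0.58. Genes are not independent replicates, and these values describe the libraries only.

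In control leaves 508 genes were higher and 1486 lower in WRC05 than in WRC06, of 19848 genes tested. The calls required an adjusted p under 0.05 (edgeR quasi-likelihood test, Benjamini-Hochberg) and a fold of at least 2. The called share was 10.0% of the tested genes in either direction, 2.56% higher and 7.49% lower, and 74.52% of the calls were lower in WRC05. Over all tested genes the median log2 fold change was 0.01. In whole leaves, fewer cells of a type and less RNA per cell cannot be told apart. The genes called higher had a median log2 fold change of 2.51 and the genes called lower one of -2.82; 166 of the higher and 459 of the lower genes differed at least 16-fold.

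The 3 WRC05 levels lay outside the range of the 3 WRC06 levels for all 508 genes called higher and for 1483 of the 1486 called lower. Over all tested genes, WRC05 lay wholly above WRC06 for 18.2% and wholly below it for 20.7%. The groups of called genes were spread over the 12 chromosomes. Chromosome 11 had the largest share of tested genes called, with 6.65% higher and 11.6% lower; the smallest shares were 1.12% higher on chromosome 7 and 5.81% lower on chromosome 12.

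The number of calls changed when 1 library was left out, which leaves 2 in its group. How far the smaller group alone lowers the number was not tested. Without WRC05 control replicate 1, 2 or 3 it was 826, 668 or 614, and without WRC06 control replicate 1 or 3 it was 740 or 632. Without WRC06 control replicate 2 it was 6255, with 2587 genes higher and 3668 lower, and these held 1990 of the 1994 genes. All 6 of these fits and the fit of all libraries called 451 genes, 155 higher and 296 lower in WRC05. Drought leaves gave 371 of the 451 as calls in the same direction. Of all genes tested in drought leaves, 17.4% were called, 5.75% higher and 11.7% lower in WRC05.

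Summed over the 1486 genes called lower in WRC05, the level was 11494, 11596 and 10137 CPM in WRC05 control leaves and 66822, 29001 and 65968 CPM in WRC06 control leaves. WRC06 control replicate 2 stood well below its companions and still above every WRC05 library. In drought leaves the same genes summed to 12803, 12540 and 11978 CPM in WRC05 and to 64293, 71342 and 49688 CPM in WRC06. The genes called higher in WRC05 summed to 27712, 37754 and 24173 CPM in WRC05 control leaves and to 5270, 8301 and 5104 CPM in WRC06 control leaves. They summed to 19932, 30169 and 22554 CPM in WRC05 drought leaves and to 5518, 6712 and 8098 CPM in WRC06 drought leaves. Control sums describe genes chosen on the same libraries; the drought sums do not share libraries with that choice, and in them the cultivars did not overlap for either group of genes.

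**Figure D1:**
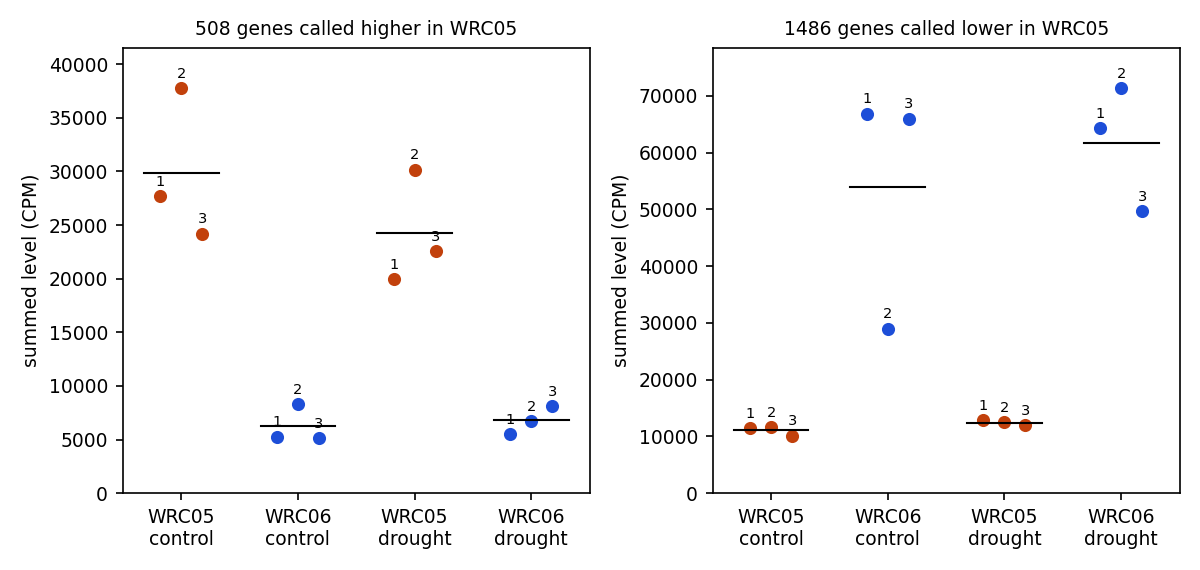
Summed level in CPM of the genes called higher (left) and lower (right) in WRC05 control leaves, in each of the 12 libraries; points are libraries with their replicate number and lines are group means. WRC06 control replicate 2 stands at 29001 CPM in the right panel, against 66822 and 65968 CPM in replicates 1 and 3.

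Tested alone, drought leaves gave 3566 calls of 20468 genes (17.4%), 1177 higher and 2389 lower in WRC05. Of the 508 genes called higher in control leaves, 407 were tested in drought leaves, 404 had the same sign and 249 were called higher again, which is 49.02% of the control list and 21.2% of the drought list. Of the 1486 genes called lower, 1468 were tested and 1461 had the same sign. Called lower again were 1274, 85.7% of the control list and 53.3% of the drought list. Genes with too few reads in drought leaves were not tested, and the shares of the control lists count them as not called again. Such genes were a larger part of the higher list than of the lower list. Called alike in both treatments were thus 1523 genes; without WRC05 replicate 1, 2 or 3 in both treatments they were 567, 510 or 455, and without WRC06 replicate 1, 2 or 3 they were 543, 2457 or 525. The drought list holds 5.75% of tested genes in the higher and 11.7% in the lower direction, and 86.2% of all 19532 genes tested in both had the same sign. Among the genes tested in drought leaves, the median log2 fold change there was 1.71 for the 407 called higher in control leaves. It was -2.76 for the 1468 called lower. The control medians given above cover all called genes, so the medians of the treatments do not rest on the same genes. Between the treatments, 0 genes were called in opposite directions.

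A test of whether the difference between WRC05 and WRC06 changed between drought and control leaves called 0 of 21454 genes (edgeR quasi-likelihood interaction, Benjamini-Hochberg), which is 0.00%. At an unadjusted p under 0.05 there were 358 genes (a uniform distribution would give 1073), and DESeq2 called 4. This does not show that the differences were equal.

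**Figure D2:**
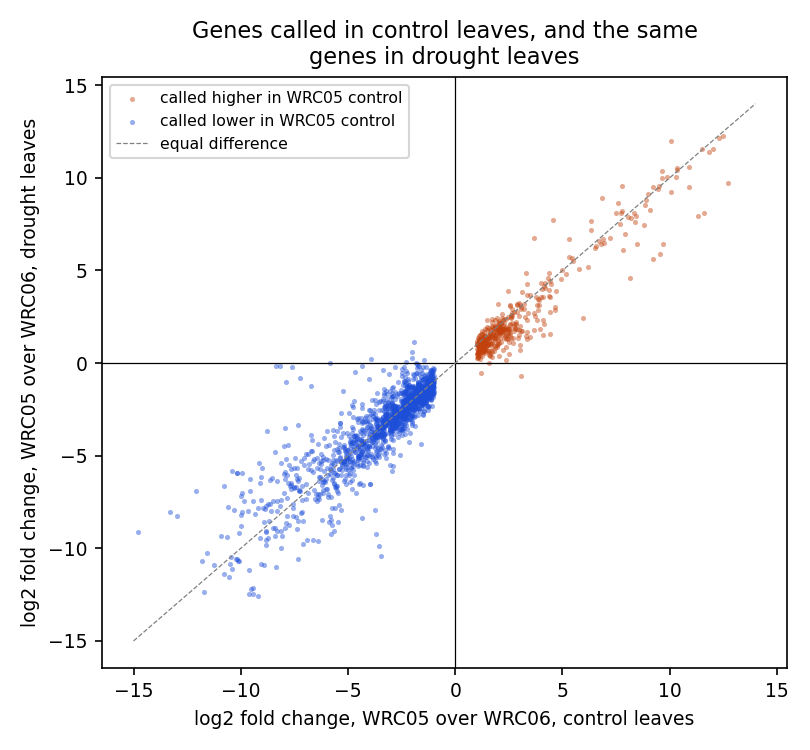
Log2 fold change of WRC05 over WRC06 in control leaves (horizontal) and in drought leaves (vertical) for each gene called in control leaves and tested in both; the dashed line marks equal differences. Of the plotted genes, 404 of 407 called higher and 1461 of 1468 called lower keep their sign in drought leaves.

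The largest differences were between many reads and none. LOC_Os06g12170 on chromosome 6 had 37.1, 42.6 and 98.1 CPM in WRC05 control leaves and 0 reads in each WRC06 control library. This is at least 960-fold higher than the limit that 3 reads over the WRC06 libraries would set (adjusted p = 0.0048, edgeR quasi-likelihood test). In drought leaves it had 40.5, 2.85 and 18.8 CPM in WRC05 and 0.0475, 0 and 0 CPM in WRC06 (adjusted p = 0.0036, edgeR). Among the 38 other cultivars and lines it had 0 reads in all control libraries of 10 and at least 5 CPM in 7.

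LOC_Os01g11720 on chromosome 1 stood at 50.0, 42.35 and 57.04 CPM in WRC05 control leaves and at 0 reads in the 3 WRC06 control libraries, at least 807-fold higher (adjusted p = 0.0011, edgeR quasi-likelihood test). In drought leaves it had 58.1, 23.3 and 30.4 CPM in WRC05 and 0 reads in WRC06. All 6 WRC05 libraries were high and all 6 WRC06 libraries were at 0. The gene also had 0 reads in the control leaves of 35 of the 38 others.

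In the other direction, LOC_Os07g03730 on chromosome 7 had 0 reads in the 3 WRC05 control libraries and 374, 23.8 and 347 CPM in WRC06 control leaves. Measured against the limit of 3 reads over the WRC05 libraries, it was at least 3009-fold lower in WRC05 (adjusted p = 0.021, edgeR quasi-likelihood test). In drought leaves it had 0.0595, 0.268 and 2.09 CPM in WRC05 and 214, 321 and 26.5 CPM in WRC06. Within WRC06 this gene was low in control replicate 2 and in drought replicate 3. Its control call was lost when any 1 library other than WRC06 control replicate 2 was left out.

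LOC_Os09g25070 on chromosome 9 had 0 reads in WRC05 control leaves and 108.1, 57.71 and 102.1 CPM in WRC06 control leaves, at least 1083-fold lower in WRC05 (adjusted p = 0.0022, edgeR quasi-likelihood test). In drought leaves it had 0.297, 0.698 and 0 CPM in WRC05 and 150, 89.3 and 133 CPM in WRC06, with no overlap. Only 1 of the 38 others had 0 reads in all its control libraries, and 3 had at least 5 CPM.

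Of the 37 genes read in one cultivar only, 0.266% of the 13914 genes that reached 5 CPM throughout either cultivar, 28 were read in WRC05 and 9 in WRC06. The 28 lay on 9 chromosomes with a median of 16.6 CPM, and their highest WRC05 control library was a median of 1.94 times the lowest. Drought leaves of WRC06 had 0 reads for 21 of the 28, and all WRC05 drought libraries had at least 5 CPM for 9. Several of the 28 had 0 reads in a WRC05 drought library, mostly in replicate 2, which held 19.79 M reads. LOC_Os11g46810 had 15.29, 0 and 36.28 CPM in WRC05 drought leaves, and LOC_Os12g16524 had 64.06, 0 and 45.46 CPM. Such genes were thus not read throughout WRC05. The 28 genes were often unread in other cultivars: a median of 14.5 of the 38 others had 0 reads in control leaves.

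The 9 genes read only in WRC06 lay on 7 chromosomes with a median of 30.1 CPM, and their highest control library was a median of 5.01 times the lowest. Drought leaves of WRC05 had 0 reads for 2 of the 9. A median of 1 other cultivar had 0 reads. Without WRC05 replicate 2 or WRC06 replicate 2 the 37 genes became 60 or 79. By its definition this count cannot fall when a library is left out.

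Genes called in control leaves were placed on a scale that runs between the WRC05 control mean (0%) and the WRC06 control mean (100%) in log2 CPM, and each of the 38 other cultivars got the median over genes. For the genes lower in WRC05, the others had a median position of 17.4%, near WRC05, and a range between 0.249% in WRC01 and 104.5% in WRC04. Only 4 of the 38 were past the midpoint, with WRC100 at 78.1%, WRC32 at 76.99% and WRC02 at 55.8% beside WRC04. Summed over these genes, control leaves had 57294 ± 21317 CPM in WRC04 and 42915 ± 25261 CPM in WRC100 (SD, n = 3). The sum was 35878 ± 9677 CPM in WRC32 and 30107 ± 18086 CPM in WRC02. It was 53930 ± 21594 CPM in WRC06 and 11076 ± 815 CPM in WRC05. Libraries of 1 cultivar thus differed widely in WRC04, WRC100, WRC02 and WRC06. For the genes higher in WRC05 the median position was 46.9%, and 14 of 38 were past the midpoint. Of the genes called higher, 41.3% had 0 reads in the control leaves of at least 1 other cultivar, as had 21.5% of the genes called lower and 9.19% of all tested genes.

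The 3 WRC05 control libraries differed in which genes were read at all. At least 5 CPM in 1 control library and 0 reads in another were found for 71 genes in WRC05, 0.486% of the 14609 genes that reached 5 CPM in 1 of its control libraries, and for 25 genes in WRC06. The other 38 cultivars had a median of 5 such genes in control leaves, and the lowest had 0. WRC02, WRC16 (90) and WRC35 (78) had more than WRC05, and 6 of the 38 had more than WRC06. Without WRC05 control replicate 1, 2 or 3 the 71 genes became 27, 57 or 28. Without WRC06 control replicate 2 the 25 became 0. By its definition such a count cannot rise when a library is left out, and the counts of the other cultivars use 3 libraries.

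Among drought libraries the count was 137 in WRC05, the highest of the 35 cultivars whose 3 drought libraries all held at least 1000000 reads, and 55 in WRC06. Without the shallow WRC05 drought replicate 3 the WRC05 count was 59, and 88 or 76 without replicate 2 or 1. The WRC06 count was 4 without drought replicate 2, 10 without replicate 3 and 51 without replicate 1. In control leaves the ordinary spread was not wide in WRC05. The median SD of log2 CPM among control libraries was 0.22 in WRC05 and 0.33 in WRC06, and the others had a median of 0.22 with a range between 0.17 and 0.37. The order of the pair in control leaves rested on 1 library: without WRC06 control replicate 2 the WRC06 value was 0.17. Among drought libraries the median SD was 0.28 in WRC05 and 0.31 in WRC06. The others had a median of 0.23 there, with a range between 0.18 and 0.41.

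**Figure D3:**
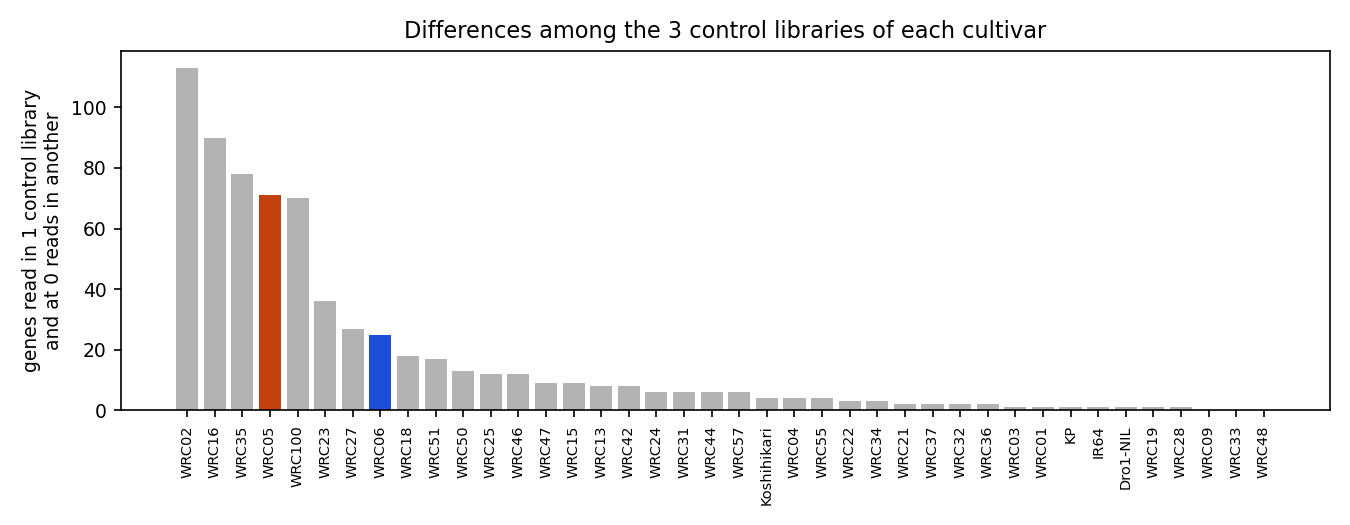
Number of genes with at least 5 CPM in 1 control library and 0 reads in another of the same cultivar, 1 bar for each of the 40 cultivars and lines, with WRC05 in orange and WRC06 in blue. WRC05 has 71 such genes and WRC06 has 25, beside a median of 5 in the others.

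Over the 1500 cultivar-specific genes, WRC05 control libraries correlated with each other at 0.72 to 0.82 and WRC06 control libraries at 0.90 to 0.97. In drought leaves the ranges were 0.61 to 0.68 in WRC05 and 0.90 to 0.95 in WRC06. A WRC05 control and a WRC05 drought library correlated at 0.58 to 0.74, and a WRC05 control and a WRC06 control library at 0.35 to 0.49. Between a WRC05 and a WRC06 drought library it was 0.40 to 0.55. WRC05 drought replicate 2 correlated at 0.584 with WRC05 control replicate 3 and at 0.586 with WRC06 control replicate 2. By this small gap, WRC05 libraries were not all nearer to each other than to WRC06. With WRC06 control replicates 1 and 3 the same WRC05 library correlated at 0.51 and 0.52. The genes were ranked with these labels, which favours the own label.

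For each WRC05 control library, the genes farthest from both companions are given here. They were picked for that distance, and any 3 libraries would yield such genes. In WRC05 control replicate 1, LOC_Os01g35789 on chromosome 1 had 0 CPM, against 45.1 and 55.9 CPM in replicates 2 and 3. WRC05 drought leaves had 0.0595, 95.3 and 55.1 CPM, and WRC06 control leaves 91.6 ± 9.88 CPM (SD, n = 3). The gene was thus near 0 in 1 WRC05 library of each treatment. LOC_Os03g14310 on chromosome 3 had 0.0732, 57.4 and 52.2 CPM in the 3 control libraries and 23.2, 0.0537 and 22.5 CPM in the drought libraries of WRC05, beside 59.1 ± 3.69 CPM in WRC06 control leaves. Higher in replicate 1 were LOC_Os09g23300, with 126, 1.71 and 1.82 CPM in WRC05 control leaves, and LOC_Os07g29760, with 39.4, 0.257 and 0.0908 CPM. WRC06 control leaves had 17.9 ± 18.4 CPM of LOC_Os09g23300 and 11.1 ± 6.03 CPM of LOC_Os07g29760. In WRC05 drought leaves LOC_Os09g23300 had 3.27, 10.4 and 0.417 CPM, and LOC_Os07g29760 had 13.3, 16.6 and 19.6 CPM.

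In WRC05 control replicate 2, LOC_Os08g39640 on chromosome 8 was at 0 CPM beside 20.9 and 25.6 CPM in replicates 1 and 3. Drought leaves of WRC05 had 0, 43.9 and 30.4 CPM of it, and WRC06 control leaves at most 0.0579 CPM. LOC_Os11g30200 on chromosome 11 had 29.2, 0.171 and 27.9 CPM in WRC05 control leaves and 0, 0 and 27.5 CPM in WRC05 drought leaves. Both genes were unread in at least 1 WRC05 drought library and nearly unread in WRC06 control leaves. LOC_Os10g22100 had 0, 7.36 and 0 CPM and LOC_Os11g34690 had 0.219, 12.1 and 0.454 CPM in the WRC05 control libraries. Their WRC05 drought levels were 17.4, 6.44 and 4.59 CPM for LOC_Os10g22100 and 18.4, 23.2 and 10.4 CPM for LOC_Os11g34690. Neither was near 0 in any drought library of WRC05.

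In WRC05 control replicate 3, LOC_Os02g40240 on chromosome 2 had 0.363 CPM, beside 535 and 1494 CPM in replicates 1 and 2. The 3 WRC05 drought libraries had 670, 945 and 381 CPM and WRC06 control leaves 2791 ± 408 CPM (SD, n = 3). Only 1 of the 12 libraries of the pair was thus near 0 for this abundant RNA. LOC_Os03g59774 on chromosome 3 had 50.4, 50.1 and 0 CPM in WRC05 control leaves and 103.3, 53.7 and 0.417 CPM in WRC05 drought leaves. LOC_Os11g14544 had 0, 0.513 and 174 CPM in control and 0.0595, 183 and 0 CPM in drought leaves of WRC05. LOC_Os11g11550 had 0, 0.171 and 68.1 CPM in control and 0, 48.9 and 0 CPM in drought leaves of WRC05. These last genes, both on chromosome 11, were high in the same WRC05 libraries, control replicate 3 and drought replicate 2, and WRC06 control leaves had at most 0.116 CPM of either.

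The 71 genes that were read in some and unread in other WRC05 control libraries lay on all 12 chromosomes. Counting a library as off where its level was at most 5% of the highest WRC05 library, control replicates 1, 2 and 3 were off for 40, 32 and 23 of the 71 genes. Drought replicates 1, 2 and 3, which did not choose the genes, were off for 37, 17 and 20. At least 1 drought library was off for 52 genes, and all 3 were off for 0. Of the 71 genes, 87.3% were unread in the control leaves of 1 or more other cultivars. The same held for 2.89% of the 12854 genes that reached 5 CPM in every WRC05 control library. The 71 were chosen for 0 reads in a WRC05 library and the 12854 for reads in every one. This contrast is therefore partly built in. WRC06 had at least 5 CPM in all control libraries for 27 of the 71 and 0 reads in all of them for 23.

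Genes of the 71 that followed each other along a chromosome often shared a split. Neighbours here are consecutive genes of the 71, mostly with other identifiers between them. Across the 6 WRC05 libraries the 71 genes showed 25 different splits into on and off. Of 59 pairs of genes next to each other in identifier order on a chromosome, 27 had the same or the exactly opposite split (45.8%), against 78 of 2241 pairs on different chromosomes (3.48%). The median absolute correlation of log2 CPM was 0.83 for neighbours and 0.39 for pairs on different chromosomes, over 6 libraries each. The 3 control libraries chose the genes.

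In 7 stretches at least 3 such genes in a row had 1 split, 29 genes in all; the ends named here were chosen after their values were seen. The stretch with the most genes, 8, ran between LOC_Os11g11550 and LOC_Os11g22449 on chromosome 11 and was read in control replicate 3 and drought replicate 2. The stretch between LOC_Os01g24764 and LOC_Os01g35930 on chromosome 1, with 5 genes, was off in replicate 1 of each treatment. A stretch of 4 genes between LOC_Os04g05750 and LOC_Os04g08190 on chromosome 4 was read in control replicate 3 and in drought replicates 2 and 3. The other 4 stretches, of 3 genes each, lay on chromosomes 2, 3, 7 and 12.

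Most other genes between those ends did not follow. Of 629 further genes inside the stretches with a mean of at least 5 CPM, 4.61% had a 4-fold range among WRC05 libraries, against 4.07% of 13178 genes outside. In WRC06 the shares were 5.72% inside and 5.69% outside.

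**Figure D4:**
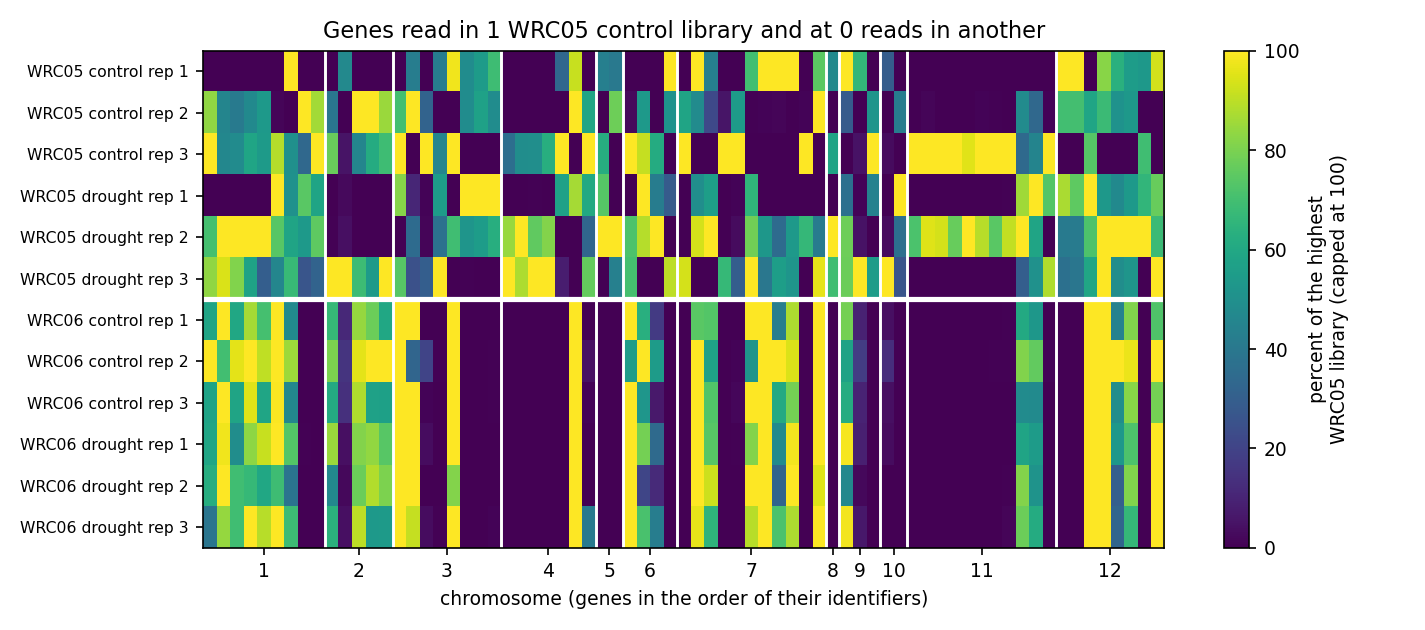
Level of the genes that were read in 1 WRC05 control library and unread in another, as percent of the highest WRC05 library (colour, capped at 100), in the 6 WRC05 libraries above and the 6 WRC06 libraries below; columns are genes in identifier order and white lines separate chromosomes. On chromosome 11, a run of 8 genes is read in WRC05 control replicate 3 and drought replicate 2 and near 0 in the other libraries.

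Of the 71 genes, 23 were steady in WRC06, with at least 5 CPM in all 6 of its libraries and a highest library at most 3 times the lowest. Expressed as percent of the WRC06 mean, their 69 values in WRC05 control libraries fell below 10% in 26 cases, between 10% and 25% in 1, between 25% and 75% in 27 and between 75% and 200% in 15. The 69 values in WRC05 drought libraries fell into the same bins 21, 1, 24 and 23 times. Among all 11366 genes steady in WRC06, 0.815% of control and 0.771% of drought values were below 10%, and 22% and 22.4% were between 25% and 75%. LOC_Os01g35789 had 0%, 51.9% and 64.2% of the WRC06 mean in the WRC05 control libraries and 0.0684%, 110% and 63.3% in the drought libraries. Values below 10% in control were part of the choice of these genes, whereas the drought values were not.

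**Figure D5:**
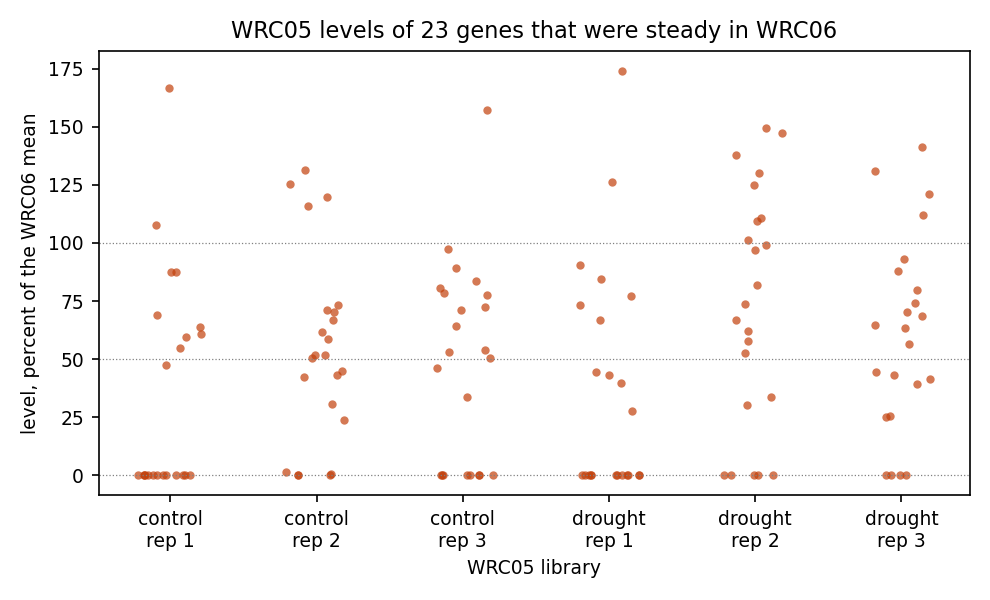
Level of the 23 genes that were steady in WRC06, as percent of the WRC06 mean, in each of the 6 WRC05 libraries; each point is 1 gene. In every library some genes lie near 0 and the rest between 25% and 200%, with 1 value of the control and 1 of the drought libraries between 10% and 25%.

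WRC06 libraries differed in another pattern. The 25 genes read in some and unread in other WRC06 control libraries lay on 10 chromosomes but showed 4 splits. All 25 were off in control replicate 2 and in drought replicate 3, 16 were off in drought replicate 1, 2 in drought replicate 2, 1 in control replicate 1 and 0 in control replicate 3. Pairs on different chromosomes had the same or the opposite split in 42.1% of 271 cases, beside 46.7% of 15 neighbours. The median correlation was 0.86 for pairs on different chromosomes and 0.88 for neighbours, over 6 libraries each. The WRC05 and WRC06 sets shared 0 genes. In WRC05 control leaves 14 of the 25 had 0 reads in all libraries and 0 had at least 5 CPM in all.

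WRC06 control replicate 2 stood apart over a larger set. In it 431 genes were at least 4-fold below both companions, whereas replicates 1 and 3 had 4 and 2 such genes and WRC05 control replicates 1, 2 and 3 had 47, 51 and 32. Summed over the 431 genes, the level was 3017 CPM in WRC06 control replicate 2, beside 29470 and 24185 CPM in replicates 1 and 3. The drought libraries of WRC06 had 13366, 28287 and 6913 CPM, so drought replicate 3 was the lowest of them. WRC05 control libraries had 2415, 2368 and 1861 CPM and WRC05 drought libraries 1809, 2202 and 1863 CPM. Of the 431 genes 375 were tested in control leaves, where 191 were called lower and 0 higher in WRC05, beside 7.49% lower and 2.56% higher of all tested genes. The 431 were chosen on the WRC06 control libraries that these calls use, so nothing is read from that count. The other cultivars had a median of 2840 CPM in control leaves, and the highest were WRC04 with 13947 CPM and WRC100 with 13542 CPM. WRC06 control replicate 2 held 14.66 M reads, beside 15.08 M and 14.69 M in replicates 1 and 3, and its TMM factor was 0.959, beside 1.15 and 1.18. Their part in the result was not tested.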

How the data were processed

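The table deposited by the authors held raw read counts, 55986 identifiers by 239 libraries. The submitters' processing notes name STAR, featureCounts 2.0.0 and the build IRGSP-1.0. The annotation release, the strand setting, filters and the treatment of reads with several positions are not given in the sources used here. Reads that match no gene of the reference, or match copies of a gene equally well, can be missing from such counts, and near-identical copies can share reads.

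The 6 control libraries were fitted with edgeR 4.0.16 in R 4.3.3 (filterByExpr with a minimum count of 10, TMM, glmQLFit and glmQLFTest), and the 6 drought libraries likewise in a fit of their own. The interaction used all 12. Benjamini-Hochberg adjustment ran over all tested genes. DESeq2 1.42.0 was an alternative. CPM used TMM factors over all 239 libraries, and profiles used log2(CPM + 0.5). The upper limit for 0 reads was 3 reads over the group and covers counting error only. Counts per library are whole sets of assigned reads, so deeper libraries have smaller counting error.

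Members, lists and thresholds were chosen with earlier results of these data known. Named genes were called in control, had a mean of at least 5 CPM in the higher cultivar, did not overlap and kept their direction in drought leaves; with identifiers only, the first 2 in each direction by fold change were taken. For each WRC05 control library, the 2 genes farthest above and the 2 farthest below both others were taken. Lists of genes by symbol matched 0 identifiers and were not used. Same-numbered libraries of WRC05 and WRC06 had correlations of deviations of 0.09, -0.05 and -0.04 in control leaves. In drought leaves they had 0.04, 0.20 and 0.10. So few values cannot show whether replicate numbers mark a block. The main fits used no block, and fits with a replicate block are given among the alternatives. Fold bounds, splits and positions were computed with Python 3.11.15, numpy 2.4.6 and pandas 2.3.3.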

Additional observations from a re-analysis of the deposited data

How the results depend on the processing

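Against 1994 genes called in control leaves, 3082 were called without the filter on low counts, 3283 with DESeq2, 3091 in a fit of all 12 libraries and 5262 with the spread shared over 40 cultivars; without 1 library the count ran between 614 and 6255. In drought leaves a fold minimum of 4 left 1831 of 3566 genes, and the count without 1 library ran between 2088 and 4499. Against 1523 genes called alike in both treatments, there were 2499 without the filter, 2405 with DESeq2, 2335 with all 12 libraries, and between 455 and 2457 without 1 library. The interaction gave 1 gene with RLE size factors, 1 without the filter, 4 with DESeq2, and between 0 and 4 without 1 library. With the replicate block the counts were 1216 in control leaves, 3825 in drought leaves, 989 alike in both and 1 for the interaction. Of the control libraries of WRC05, only replicate 1 correlated best with its own number in WRC06; all 3 drought libraries did (0.04, 0.20 and 0.10), a hint from the data and not from the design. The 37 genes read in one cultivar only became 91 at 2 CPM, 17 at 10 CPM and 82 with up to 2 reads allowed, and between 39 and 79 without 1 library. The 71 genes of WRC05 became 152 at 2 CPM and 41 at 10 CPM, and between 27 and 57 without 1 library, a setting chosen after seeing the data. The correlation of the control profiles was 0.50 over 500 genes, 0.18 over 5000 and 0.63 without centring, the last also chosen after seeing the data. The median SD without 1 library ran between 0.16 and 0.19 in WRC05 and between 0.17 and 0.35 in WRC06. Of 44 values of the named genes under alternatives, 39 kept direction and call, 5 lost the call and 0 reversed. Fewer samples or genes enter some of these settings; the causes were not tested. WRC05 drought replicate 3, with 2.607 M reads, limits what 0 reads can show in drought leaves.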
